A study of Mus musculus with 17 samples.

Results

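The genes examined were 10 core autophagy genes, taken from the count table by their symbols: Ulk1, Becn1, Atg5, Atg7, Map1lc3a, Map1lc3b, Gabarap, Gabarapl1, Gabarapl2 and Sqstm1. They made up 10 of the 24498 symbols in the table, each was found once, and each passed the filter on low counts in every fit. Poly(A) RNA was sequenced from slices of mouse dorsal hippocampus, which hold CA1, CA2, CA3 and the dentate gyrus. Mice were wild type (WT) or homozygous for a knockout (KO) of Acss2, which encodes the enzyme acetyl-CoA synthetase 2, and both genotypes descended from the same heterozygote colony through homozygous crosses. At 6 months of age they received either PBS or tau from human Alzheimer's disease brain (Tau), injected into the dorsal hippocampus. The 17 libraries formed 6 groups and are called by their label numbers: in males WT PBS (791, 792, 793), WT Tau (771, 772, 773), KO PBS (751, 752, 753) and KO Tau (711, 712, 713), and in females WT Tau (331, 341) and KO Tau (314, 324, 325). There was no female group with PBS. Tau was given as purified protein, no tau transgene is named for any group, and tissue was studied 6 months after the injection by the study's methods.

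Autophagy delivers cytoplasmic material to lysosomes in double-membrane vesicles called autophagosomes. Starting kinases and a lipid kinase complex begin the vesicle, a conjugation system attaches small ubiquitin-like proteins of the Atg8 family to its membrane, and receptors tie cargo to them. In neurons the pathway clears protein aggregates and worn organelles, and the cargo receptor p62, encoded by Sqstm1, is itself degraded with its cargo. The values here are levels of mRNA, which measure neither the amount of the proteins nor the flow of cargo through the pathway.

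By role, Ulk1 (GRCm38 chromosome 5, 110784488 to 110810097, minus strand) encodes the kinase that starts autophagosome formation, and Becn1 (chromosome 11, 101285952 to 101302286, minus strand) encodes Beclin 1, a subunit of the lipid kinase complex. Atg7 (chromosome 6, 114643097 to 114860614, plus strand) encodes the E1-like enzyme of the conjugation system, and Atg5 (chromosome 10, 44268358 to 44364291, plus strand) encodes a part of the complex that completes the attachment. The Atg8 family was represented by Map1lc3a (chromosome 2, 155276297 to 155278073, plus strand), Map1lc3b (chromosome 8, 121590361 to 121598760, plus strand), Gabarap (chromosome 11, 69991143 to 69994951, plus strand), Gabarapl1 (chromosome 6, 129533160 to 129542346, plus strand) and Gabarapl2 (chromosome 8, 111940703 to 111953612, plus strand). Sqstm1 (chromosome 11, 50199366 to 50210827, minus strand) encodes the cargo receptor. Map1lc3a was the only member on the chromosome of Acss2, and 239.9 kb separated both genes.

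The coding ends of the Atg8 genes are shown because the proteases of the Atg4 family cut there, behind a glycine that is then joined to the membrane lipid. Each line gives the last 30 coding bases, stop codon included, of a principal GENCODE transcript on GRCm38, 5′ to 3′, and the capitals mark the codon of that glycine.
Map1lc3a: tacgcctcccaagaaaccttcGGCttctga
Map1lc3b: gagacattcGGGacagcaatggctgtgtaa
Gabarap: tacagtgatgaaagcgtctatGGTctgtga
Gabarapl1: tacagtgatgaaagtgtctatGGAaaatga
Gabarapl2: tacagcggagagaacacttttGGCttctga
In Map1lc3b 5 codons followed the glycine codon before the stop, and in the other Atg8 genes 1 codon did. Over the whole coding sequence Map1lc3a and Map1lc3b were 74.7% identical, Gabarap and Gabarapl1 74.9%, Gabarapl1 and Gabarapl2 64.5%, and Map1lc3a and Gabarap 51.6%. Despite this kinship, no stretch of 50 transcript bases was shared between any members. Gabarapl2 shared 12.2% of its stretches with the gene models Gm3724, Gm5829, Gm6051 and Gm6059, and Map1lc3b shared 5.77% of its stretches with genes outside the list, so their counts depend more than the others on how such reads were assigned. No member overlapped the exons of another gene on its strand.

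Counts of a member in a library ran from 332 to 16826, so counting error alone was 0.771% to 5.49% of a value. Total counts were 14183131 to 22463635 per library, and levels are given as CPM, counts scaled to the same total in every library. Per kb of exon, Gabarapl1 was highest, with a mean over 17 libraries of 383 CPM per kb, ahead of Sqstm1 at 174.5, Map1lc3a at 124 and Gabarap at 100.4. In the 5 female libraries alone the mean of Gabarap, at 109 CPM per kb, was above that of Map1lc3a, at 105.5. That gap came mainly from libraries 331 (127.6 and 121) and 325 (118.5 and 106.9). The genes were close in 314 (91.5 and 90.9) and 324 (105.7 and 105.2), and 341 went the other way (102.2 and 103.6). In the 12 male libraries Map1lc3a, at 132, was above Gabarap, at 96.7. Map1lc3b followed at 72.0 CPM per kb and Gabarapl2 at 42.2. The enzymes and the initiation genes were the lowest, with Becn1 at 23.2 CPM per kb, Ulk1 at 16.5, Atg5 at 11.1 and Atg7 at 9.25. Over libraries, only Gabarapl1, Gabarapl2 and Becn1 had ranges clear of the gene below them in this order. Compared within each library, however, Sqstm1 was always above Map1lc3a, Gabarap above Map1lc3b, and Map1lc3b above Gabarapl2. The closest of these were 80.9 and 74.25 CPM per kb for Gabarap and Map1lc3b in library 752. For Map1lc3a and Gabarap, Ulk1 and Atg5, and Atg5 and Atg7, the order changed between libraries. These lengths came from GENCODE transcripts matched to RefSeq mRNAs. With the exons of every annotated transcript, Map1lc3b fell to 24.2 CPM per kb, below Gabarapl2 at 30.4.

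**Figure D1:**
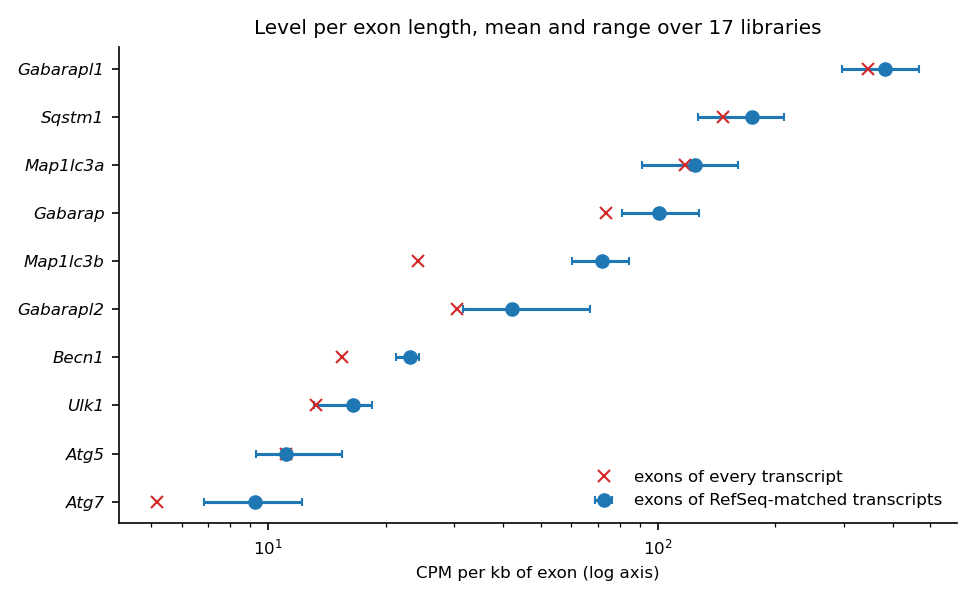
Level of each gene in CPM per kb of exon on a log axis, as mean (circles) and range (bars) over 17 libraries, with crosses for the mean when the exons of every transcript are counted. Gabarapl1 is highest at 383 CPM per kb and Atg7 lowest at 9.25, and the position of Map1lc3b depends most on the length used.

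Across all 17 libraries the members differed in how much they varied. Becn1 was the steadiest, at 100.7 to 115 CPM with a coefficient of variation of 3.92%, and Gabarapl2 the most variable, at 52.9 to 112 CPM and 26.7%. Within the 12 male libraries the coefficient of variation ran from 3.76% for Becn1 to 11.8% for Map1lc3a, and that of Gabarapl2 was 7.72%. The group means of Becn1 lay between 108 CPM in male WT PBS and 110.4 CPM in male WT Tau, and libraries of these groups overlapped. Map1lc3b, the Atg8 gene most often followed as a marker of autophagosomes, had means from 170.9 ± 17.8 CPM in male KO PBS (SD, n = 3) to 188.5 ± 9.15 in male KO Tau (n = 3), and its 2 female WT Tau libraries stood at 209.8 and 162 CPM. Sqstm1 fell in the order male KO PBS (559.9 ± 32.3 CPM, SD, n = 3), male WT Tau (535 ± 8.36), male KO Tau (527 ± 99.9), male WT PBS (522 ± 20.8), female WT Tau (404 ± 2.57, n = 2) and female KO Tau (379 ± 20, n = 3). Neighbours among the male groups in this order overlapped, and a gap lay between male WT PBS and female WT Tau.

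Acss2 checked the genotype labels: the 9 KO libraries held 3.08 to 8.81 CPM of its mRNA and the 8 WT libraries 44.0 to 54.6 CPM. Some libraries stood apart in marker genes of other cells and regions, each list with all of its markers detected in every group. The summed CPM of 6 astrocyte markers (Gfap, Aqp4, Slc1a3, Aldoc, Gja1 and Aldh1l1) was 4016 to 5741 in the 5 female libraries and 3824 in male KO Tau library 711, against 1913 to 2673 in the other 11 male libraries. The 5 inhibitory neuron markers summed to 466 to 660.5 CPM in females and 598.5 in library 711, against 823 to 1146 in the other males, and the 6 oligodendrocyte markers to 4599 to 11570 in females and 7396 in 711, against 2921 to 5715. Library 752 (male KO PBS) held 444 CPM of striatum markers, against 64.5 to 157 in the other libraries, and library 713 (male KO Tau) held 4039 CPM of choroid plexus markers, against 24.2 to 580 in the others. Library 752 also had the lowest sums of CA1 (612 CPM) and CA3 (146 CPM) pyramidal markers among the males. Library 751 (male KO PBS) had the highest dentate granule sum of the 17, 439 CPM, and the lowest endothelium sum, 101 CPM. The highest oligodendrocyte sum, 11570 CPM, was that of female WT Tau library 331, and the next was that of 711. In bulk tissue, fewer cells of a type and less RNA per cell cannot be told apart.

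The question of what Tau does in the presence of Acss2 was addressed in the male WT Tau libraries, with male WT PBS as the reference. No member was called in this comparison, and the levels of both groups lay close together. Sqstm1 was at 498, 534.5 and 534 CPM in the 3 male WT PBS libraries and at 528, 531.5 and 544 in the 3 male WT Tau libraries. These values overlapped, with a log2 fold change of 0.02 (SE 0.12, FDR 0.9999) in edgeR. The kinase gene Ulk1 was at 94.7, 90.9 and 94.98 CPM with PBS and 81.6, 83.8 and 92.6 with Tau, so 2 of the 3 Tau libraries lay below every PBS library and 1 within them. Its log2 fold change, -0.13 (SE 0.09, FDR 0.9999), was the most negative of the 10. Atg5 had the most positive, 0.13 (SE 0.11, FDR 0.9999), with 25.9, 23.1 and 23.8 CPM in PBS and 27.5, 28.7 and 24.1 in Tau. The Atg5 value was 0.20 without Tau library 773 and 0.08 without 772. By edgeR's quasi-likelihood F-test at an FDR of 0.05, 0 of 10 members were called, as were 0% of 15098 genes tested. At an unadjusted p under 0.05 there were 0 members, beside 1.86% of all genes, and 0 members had libraries that did not overlap between groups, beside 12.2% of all genes. The 10 members had a median log2 fold change of 0.01, and the 95% intervals of their fold changes reached no lower than 0.793 and no higher than 1.29.

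What loss of Acss2 does without Tau was addressed in the male KO PBS libraries, with male WT PBS as the reference. Gabarap was lower in all 3 KO libraries, at 115.5, 109 and 126 CPM, than in any WT library, at 134, 131.5 and 138 CPM. The group means were 117 ± 8.5 and 135 ± 3.46 CPM (SD, n = 3 each), a log2 fold change of -0.15 (SE 0.08, FDR 0.999) in edgeR, which did not pass. Sqstm1 had the most positive value, 0.15 (SE 0.12, FDR 0.999) in edgeR, with 533, 596 and 550.4 CPM in KO PBS. Its lowest KO value lay within the WT PBS range, and its highest came from library 752, the one with striatum markers. Without library 752 the log2 fold changes were 0.11 for Sqstm1 and -0.10 for Gabarap in edgeR, and the part of those markers in the values was not tested. The neighbour of Acss2, Map1lc3a, was at 142, 136 and 154 CPM in WT PBS and 116, 162 and 154 in KO PBS, which spans the WT values on both sides. The low KO value was that of library 751, and the log2 fold change of Map1lc3a ran from -0.05 without 752 to 0.17 without 751. edgeR called 0 of 10 members, beside 0.00662% of all genes, which was Acss2 alone. There were 0 members at an unadjusted p under 0.05, beside 4.42% of all genes. Gabarap was the 1 member without overlap, beside 11.7% of all genes. The 95% intervals of the members' fold changes stayed between 0.801 and 1.34.

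The combination of Acss2 loss and Tau was examined in the male KO Tau libraries, once with male WT PBS and once with male WT Tau as the reference. These share the KO Tau libraries, so the values stand side by side only. The KO Tau group was the most spread of the male groups for Gabarapl1 and Sqstm1, the most abundant members. Gabarapl1 was at 578, 850.4 and 792 CPM in libraries 711, 712 and 713, against 726, 750.3 and 764 in WT PBS and 780.5, 710.7 and 782 in WT Tau. Sqstm1 was at 412, 596 and 573 CPM in the same KO Tau libraries. For both genes library 711 was the lowest of the 12 male libraries, and 712 and 713 lay above every WT PBS and WT Tau library. The group means were close as a result, with log2 fold changes against WT PBS of -0.01 (SE 0.13, FDR 0.9946) for Gabarapl1 and 0.02 (SE 0.12, FDR 0.985) for Sqstm1 in edgeR.

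Atg7 was at 33.6, 47.6 and 42.0 CPM in KO Tau, 40.1, 37.5 and 37.5 in WT PBS and 35.5, 38.2 and 36.6 in WT Tau, again with 711 lowest and both other KO Tau libraries above every WT library. Its log2 fold change was 0.11 (SE 0.12, FDR 0.9) against WT PBS and 0.18 (SE 0.12, FDR 0.927) against WT Tau in edgeR. Map1lc3a followed the same order, at 126, 178 and 163 CPM in KO Tau and 149, 133 and 149.9 in WT Tau. The log2 fold changes of Map1lc3a were 0.12 (SE 0.14, FDR 0.909) and 0.14 (SE 0.14, FDR 0.938) in edgeR. Atg5 against WT Tau was the most negative of the 10, at -0.16 (SE 0.11, FDR 0.927) in edgeR. edgeR called 0 of 10 members in either comparison, beside 0.00662% of all genes in each. At an unadjusted p under 0.05 there were 0 members in each, beside 6.33% of all genes against WT PBS and 4.71% against WT Tau. No member was free of overlap in either, beside 14.4% and 12.6% of all genes.

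Because library 711 stood apart, both comparisons were also fitted without it. In edgeR on the remaining 11 male libraries the log2 fold change against WT PBS became 0.23 for Atg7, 0.24 for Map1lc3a, 0.16 for Sqstm1 and 0.14 for Gabarapl1. Against WT Tau the same genes stood at 0.30, 0.26, 0.14 and 0.13, and Ulk1 at 0.17. Without library 712 in place of 711 they were lower, at 0.03 and 0.04 for Map1lc3a, -0.07 and -0.09 for Sqstm1 and -0.11 and -0.12 for Gabarapl1 against WT PBS and WT Tau. edgeR still called 0 of 10 members. DESeq2, the tool of the study, on the groups compared alone and without 711, also called 0 of 10 members against WT PBS, WT Tau and KO PBS, beside 5.33%, 7.13% and 0.0725% of all genes. In that fit Map1lc3a had adjusted p-values of 0.0784 against WT PBS and 0.0801 against WT Tau, and Atg7 of 0.238 and 0.0865. Only 2 KO Tau libraries carry these values, and 1 of them, 713, held the choroid plexus markers, whose part in them was not tested.

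**Figure D2:**
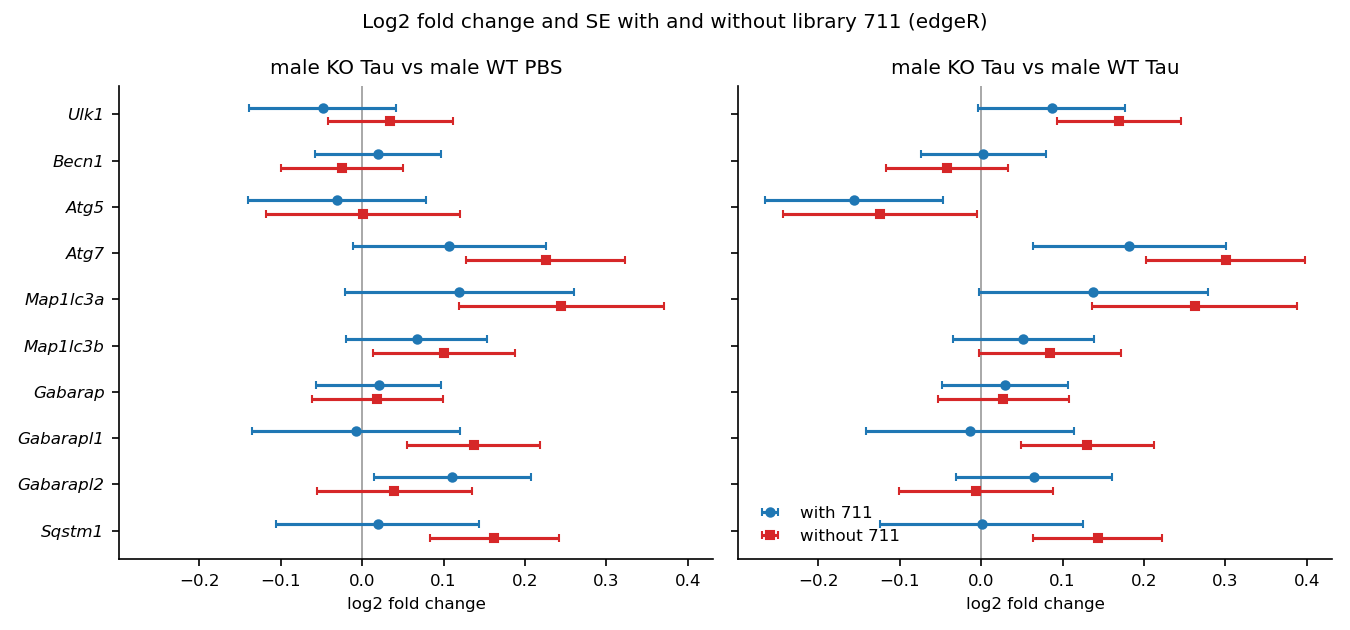
Log2 fold change with SE of the 10 genes (x axis) for male KO Tau against male WT PBS (left) and male WT Tau (right), in edgeR with library 711 (blue circles) and without it (red squares). Without it Atg7 moves from 0.11 to 0.23 and Sqstm1 from 0.02 to 0.16 in the left panel, and no gene passes the FDR either way.

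What Tau does in the absence of Acss2 was addressed in the male KO Tau libraries, with male KO PBS as the reference. Gabarap was higher in all 3 KO Tau libraries, at 135, 145 and 128 CPM, than in any KO PBS library, at 115.5, 109 and 126 CPM. The KO Tau values lay around those of the WT PBS and WT Tau groups, the latter at 137, 133 and 135 CPM. The log2 fold change was 0.17 (SE 0.08, FDR 0.625) in edgeR, the only member with an unadjusted p under 0.05 in the male comparisons, beside 7.95% of all genes, and it did not pass the FDR. This comparison and that of KO PBS with WT PBS share the KO PBS libraries, so both rest on the same low values. The other Atg8 genes gave log2 fold changes of 0.11 (SE 0.10) for Gabarapl2, 0.10 (SE 0.09) for Map1lc3b, 0.07 (SE 0.14) for Map1lc3a and -0.03 (SE 0.13) for Gabarapl1, and Sqstm1 -0.13 (SE 0.12). edgeR called 0 of 10 members and 0% of all genes, and Gabarap was the 1 member without overlap, beside 9.01% of all genes. The log2 fold change of Gabarap was 0.17 without library 711, 0.22 without 713 and 0.12 without 752 in edgeR, with no call in any of them.

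Whether the effect of Tau differed with genotype was tested directly by the male genotype by treatment interaction. The log2 interaction was 0.18 (SE 0.11, FDR 0.996) for Gabarap, 0.17 (SE 0.17, FDR 0.996) for Atg7 and -0.16 (SE 0.15, FDR 0.996) for Atg5 in edgeR, the 2 highest and the lowest of the members. Leaving out 1 library at a time gave 0.13 to 0.22 for Gabarap, 0.05 to 0.28 for Atg7 and -0.24 to -0.05 for Atg5. edgeR called 0 of 10 members and 0% of all genes, with 0 members at an unadjusted p under 0.05 beside 4.18% of all genes. The members' 95% intervals on the fold scale reached from 0.688 to 1.45, wider than in the pairs of groups.

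**Figure D3:**
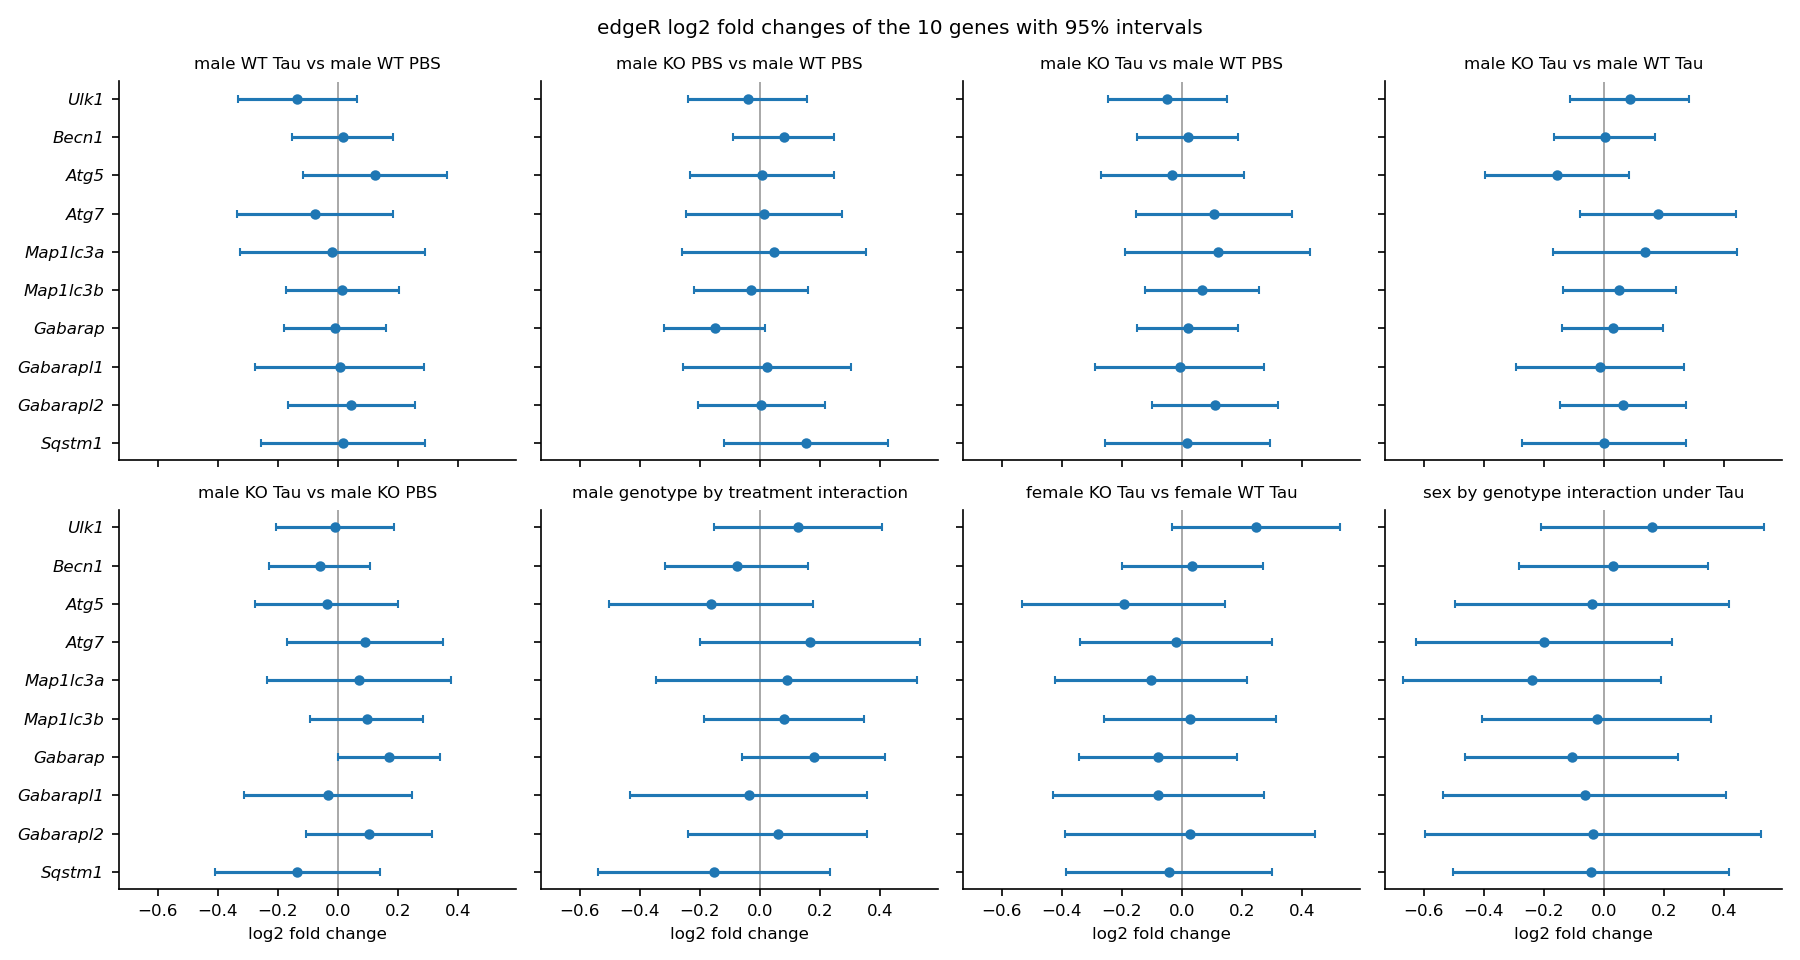
Log2 fold change of each gene with its 95% interval (x axis) in the 8 comparisons of the design, from edgeR. All intervals but 1 include 0, the exception being Gabarap in male KO Tau against male KO PBS, at 0.17, which did not pass the FDR.

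In female mice, all of them injected with Tau, KO was compared with WT. Ulk1 was at 68.5 and 74.3 CPM in the 2 WT libraries and 84.2, 81.4 and 79.9 in the 3 KO libraries, without overlap. Its log2 fold change was 0.25 (SE 0.13, FDR 0.9971) in edgeR, 0.16 without WT library 331 and 0.34 without 341. Sqstm1 was at 402.5 and 406 CPM in WT and 357, 396 and 384 in KO, also without overlap, but its log2 fold change relative to TMM-scaled libraries was -0.04 (SE 0.16, FDR 0.9971) in edgeR. edgeR called 0 of 10 members, beside 0.00649% of all genes, and 0 members had an unadjusted p under 0.05, beside 2.89% of all genes. With 2 against 3 libraries 16% of all genes did not overlap, beside the 2 members named. Gabarapl2 was widely spread within both groups, at 112 and 77.3 CPM in WT and 67.6, 102 and 110.8 in KO, and its log2 fold change was 0.29 without WT library 331 and -0.19 without 341. For the sex by genotype interaction under Tau the values ran from -0.24 (SE 0.20, FDR 0.978) for Map1lc3a to 0.16 (SE 0.17, FDR 0.978) for Ulk1 in edgeR. When 1 library was left out at a time, the interaction was -0.36 (without 711) to -0.14 (without 712) for Map1lc3a and 0.08 (without 331) to 0.25 (without 341) for Ulk1. There edgeR called 0 of 10 members and 0% of all genes, with 0 members at an unadjusted p under 0.05 beside 2.94% of all genes.

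**Figure D4:**
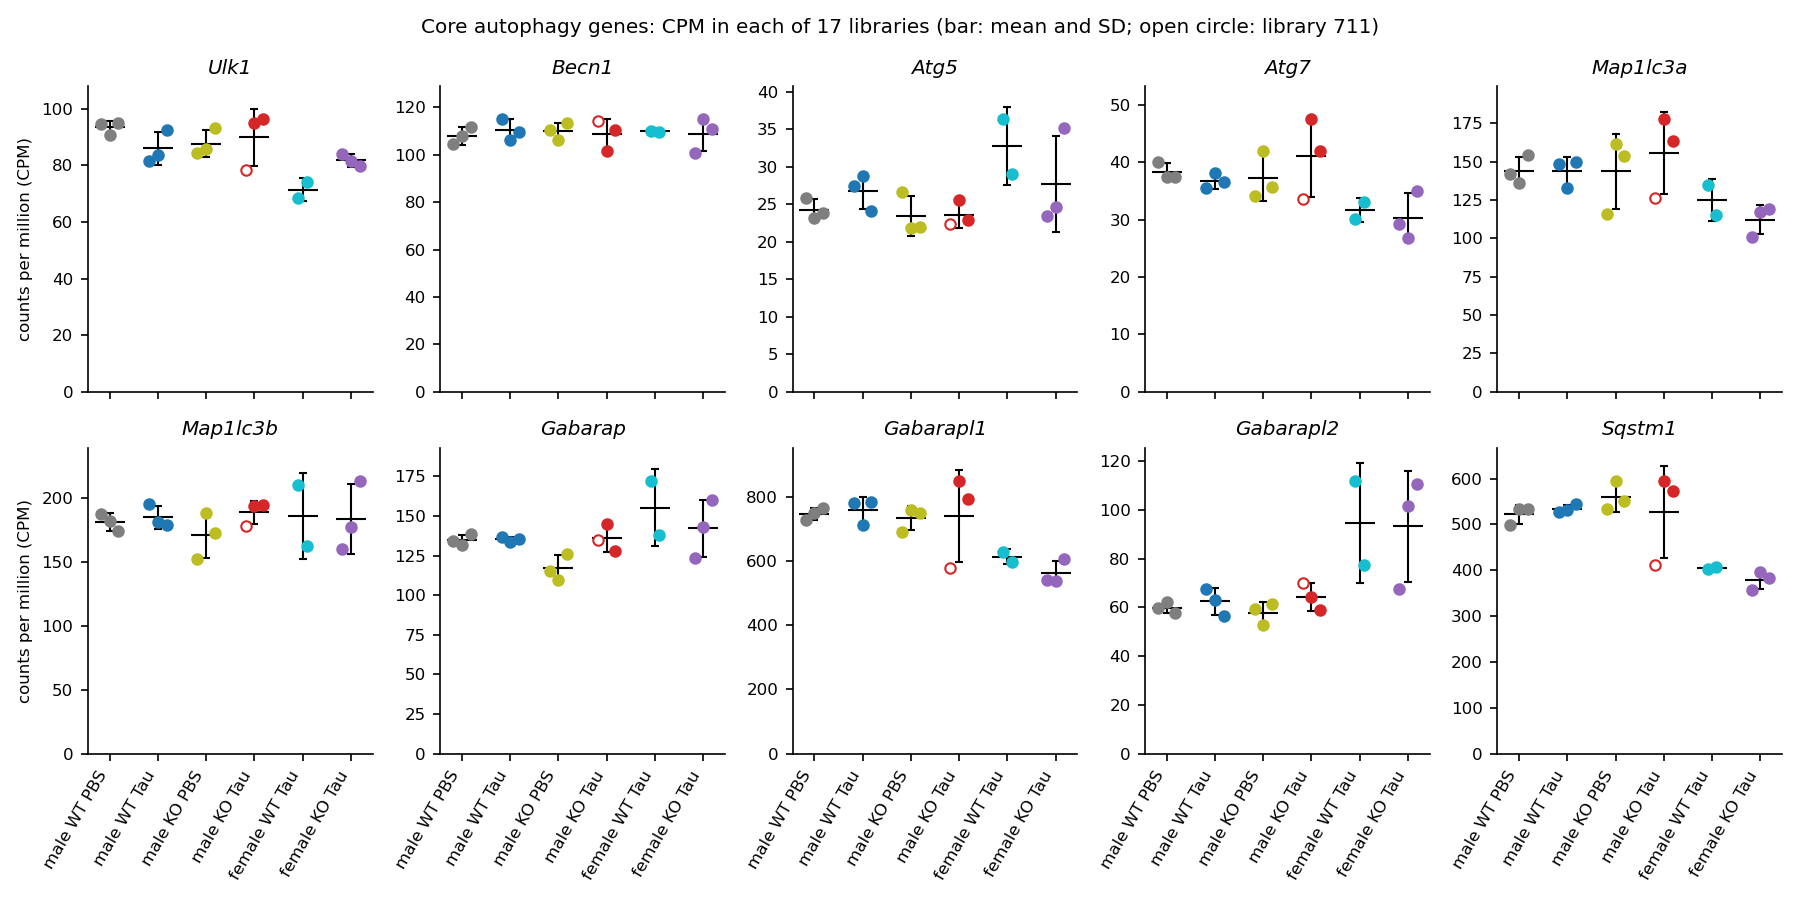
CPM of each gene (y axis, from 0) in the 17 libraries by group, each point a library, with the mean and SD of the group as bars and library 711 as an open circle. The 4 male groups overlap for every gene except Gabarap, where male KO PBS (109 to 126 CPM) lies apart from the others, and the female groups lie lower for Sqstm1 and Gabarapl1 and higher for Gabarapl2.

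The clearest separation in the levels was between female and male Tau libraries, and this comparison, averaged over genotype, was added after seeing the data. Sqstm1 ranged from 357 to 406 CPM over the 5 females and from 412 to 596 over the 6 male Tau libraries, without overlap, the value nearest to the females being that of library 711. It was lower in females, with a log2 fold change of -0.50 (SE 0.11, FDR 0.011) in edgeR, or 0.705 times the male level (95% interval 0.6 to 0.828). Gabarapl1, at 539 to 629 CPM in females and 578 to 850.4 in male Tau libraries, was also lower, with a log2 fold change of -0.42 (SE 0.11, FDR 0.0212) in edgeR, and both ranges overlapped through 711 alone. Gabarapl2 moved the other way, from 56.5 to 69.9 CPM in male Tau libraries to 67.6 to 112 in females, a log2 fold change of 0.50 (SE 0.13, FDR 0.0202) in edgeR, or 1.41 times the male level (95% interval 1.16 to 1.71).

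Of the remaining members, Map1lc3a at -0.40 (SE 0.10, FDR 0.0174), Atg7 at -0.39 (SE 0.10, FDR 0.019) and Ulk1 at -0.27 (SE 0.08, FDR 0.0423) were also lower in females in edgeR. Atg5 at 0.19 (SE 0.10, FDR 0.194), Gabarap at 0.06 (SE 0.08, FDR 0.582), Becn1 at -0.07 (SE 0.07, FDR 0.496) and Map1lc3b at -0.08 (SE 0.09, FDR 0.49) did not pass in edgeR. Thus 5 members were lower and 1 higher, 6 of 10, beside 23.8% of all 15419 genes tested, which were called in this comparison in either direction. At an unadjusted p under 0.05 the 6 members stood beside 39.8% of all genes, and the 1 member without overlap, Sqstm1, beside 10.5%. The median log2 fold change was -0.18 over the members and -0.01 over all genes tested. Without library 711 the same number, 5 lower and 1 higher, was called, beside 40.7% of all genes. Without 1 other library the share of all genes called was lower in each fit, and fewest members were called where that share was lowest. Between those ends the 2 did not move step by step. The members called were 5 both without female KO Tau library 314, beside 21.7% of all genes, and without male KO Tau library 712, beside 14.8%. The members called were 0 without female WT Tau library 331, beside 3.99% of all genes, 2 without male WT Tau library 773, beside 10.3%, and 3 without male KO Tau library 713, beside 11.5%. The folds moved less than the calls. Without 331 the log2 fold change was -0.49 (SE 0.13, FDR 0.0563) for Sqstm1, -0.43 (SE 0.13, FDR 0.0786) for Gabarapl1, -0.45 (SE 0.12, FDR 0.0563) for Map1lc3a and 0.37 (SE 0.13, FDR 0.111) for Gabarapl2 in edgeR. Over the 11 fits that each left out 1 library it ran from -0.56 to -0.44 for Sqstm1 and from -0.47 to -0.35 for Gabarapl1.

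Of the marker lists, only the astrocyte sums were free of overlap, at 4016 to 5741 CPM in female and 2092 to 3824 in male Tau libraries. Inhibitory neuron sums, at 466 to 660.5 and 598.5 to 963, overlapped through library 711 alone and were otherwise lower in females. Endothelium sums, at 216 to 287 and 138 to 225, also overlapped through 711 alone and were otherwise higher in females. All other lists overlapped. Thalamus sums were 109.8 to 418 and 79.2 to 156, and dentate granule sums 151 to 381 and 128 to 318. CA3 pyramidal sums were 211 to 401 and 165 to 311, and CA1 pyramidal sums 561 to 1029 and 757 to 1128. Oligodendrocyte sums were 4599 to 11570 and 3414 to 7396, and microglia sums 290 to 315 and 242 to 332. Library 711 had both the highest astrocyte sum and the lowest Sqstm1 and Gabarapl1 of the male libraries. Sex, the number series of the libraries and this cell makeup cannot be told apart here.

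**Figure D5:**
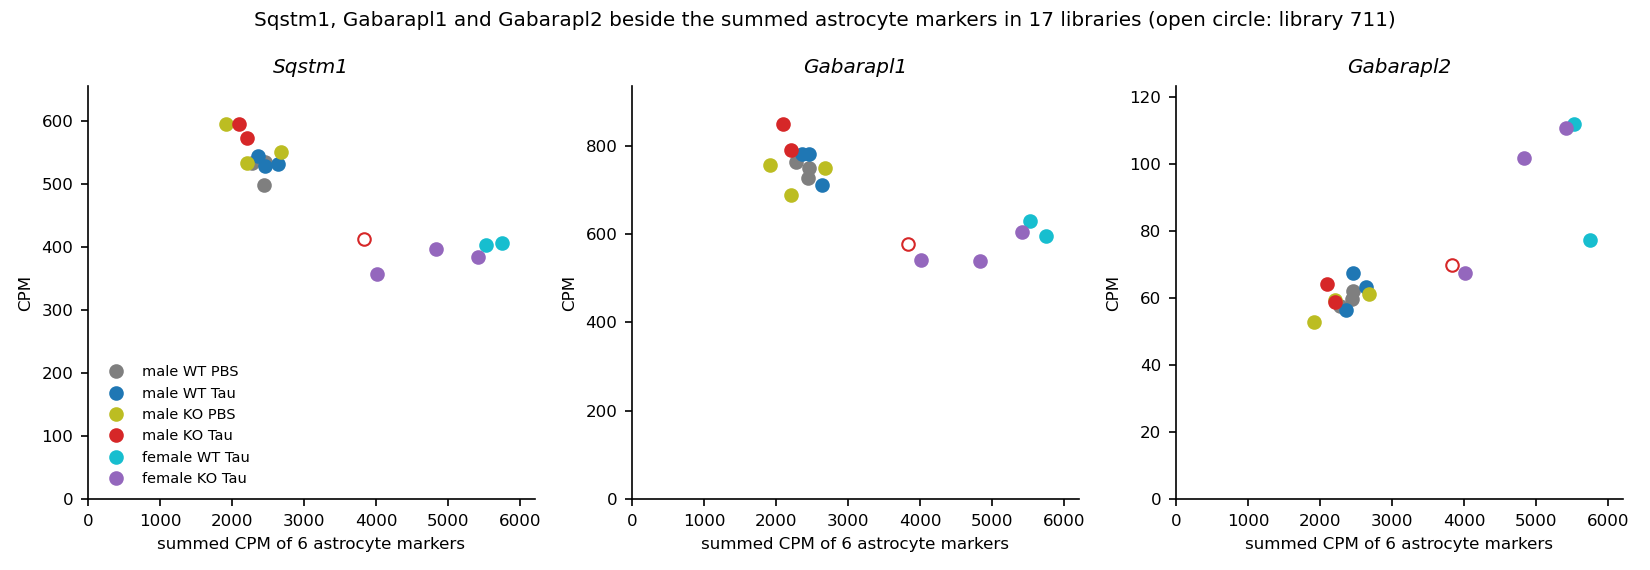
CPM of Sqstm1, Gabarapl1 and Gabarapl2 (y axes, from 0) beside the summed CPM of 6 astrocyte markers (x axis) in the 17 libraries, coloured by group, with library 711 as an open circle. The 11 other male libraries cluster at 1913 to 2673 CPM of astrocyte markers, and library 711 lies beside the 5 female libraries in both Sqstm1 and Gabarapl1.

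The other genes of the pathway were read from a list of 58 measured genes. edgeR called 0 of 58 in each of the 8 comparisons of the design, beside the same shares of all genes. Their median log2 fold change ran from -0.09 (male KO Tau against male KO PBS) to 0.05 (male KO PBS against male WT PBS). Wdfy3, a large adaptor for the clearance of protein aggregates, was at 0.30 (SE 0.09, FDR 0.999) in male KO PBS against WT PBS in edgeR. In male KO Tau against KO PBS it was at -0.35 (SE 0.09, FDR 0.55) in edgeR, and both values share the male KO PBS libraries. For the latter comparison DESeq2 on the male libraries called Wdfy3, with an adjusted p of 0.0379, among 37 of 19991 genes. Nrbf2, a subunit of the lipid kinase complex, was at -0.38 (SE 0.11, FDR 0.927) in male KO Tau against WT Tau and -0.53 (SE 0.15, FDR 0.996) in the interaction in edgeR. Vamp8, a SNARE of vesicle fusion, was at 0.54 (SE 0.19, FDR 0.783) in male KO Tau against WT PBS, and Epg5, a tether for fusion with lysosomes, at 0.44 (SE 0.16, FDR 0.9971) in female KO against WT in edgeR. Without 711, DESeq2 on the groups compared alone called only Vmp1 of the list (0.30, adjusted p 0.0346) against WT PBS, beside 5.33% of all genes. Against WT Tau it called only Tex264, a receptor for endoplasmic reticulum, (0.37, adjusted p 0.0158), beside 7.13% of all genes. Vmp1 and Tex264 are named here after their values were seen.

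Between female and male Tau libraries edgeR called 19 of the 58 lower and 2 higher, beside 23.8% of all genes. Of the lipid kinase complex 6 of 7 genes were lower, among them Pik3r4 at -0.56 (SE 0.14, FDR 0.0179), Nrbf2 at -0.49 (SE 0.10, FDR 0.0114) and Uvrag at -0.44 (SE 0.09, FDR 0.0106) in edgeR. Of the starting kinase complex 2 of 4 were lower, Atg13 at -0.45 (SE 0.08, FDR 0.00772) and Atg101 at -0.45 (SE 0.09, FDR 0.0103). Of the genes for Atg9 and lipid transfer 4 of 9 were lower, with Atg9a at -0.62 (SE 0.13, FDR 0.0103) the most negative in the list. Of 12 receptors 2 were lower, Calcoco1 at -0.51 (SE 0.08, FDR 0.00392) among them, and 1 higher, the mitochondrial receptor gene Fundc1 at 0.52 (SE 0.13, FDR 0.0198) in edgeR. Of 8 conjugation and protease genes 2 were lower and Atg12, at 0.32 (SE 0.08, FDR 0.0225), was higher. Of 11 upstream regulators 3 were lower, and of 7 fusion genes 0 were called. The number called was 3 of 58 without library 331, beside 3.99% of all genes, 10 without 773, beside 10.3%, 11 without 713, beside 11.5%, and 13 without male WT Tau library 772, beside 15.8%.

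Some members varied together across libraries, some in opposite directions and some with little relation, both within and between families. Over the 17 libraries the log2 CPM of Gabarapl1 and Sqstm1 correlated with Pearson's r of 0.943, and over the 12 male libraries of 0.88, while Gabarapl2 and Sqstm1 gave -0.759 and -0.598. Within the Atg8 family, Gabarapl1 and Gabarapl2, the pair 64.5% identical, gave -0.659 over the 17 libraries and -0.394 over the 12 male libraries. Gabarapl1 and Map1lc3a gave 0.888 and 0.782. Ulk1 gave -0.73 and -0.485 with Gabarapl2, and -0.65 and only -0.223 with Atg5, in the same order. Map1lc3b and Sqstm1 gave 0.0459 and 0.22, and Becn1 and Map1lc3a -0.02 and -0.31. These are descriptions over libraries that share groups, depth and the marker differences above, and 5 of the 17 are female. Of 15594 genes, those most like Sqstm1 were Psmd2, a subunit of the proteasome (0.984 over 17 libraries, 0.966 over 12), AI837181 (0.978 and 0.918) and Atp5a1, a subunit of the mitochondrial ATP synthase (0.977 and 0.907). Most like Gabarapl1 were Atp6v0d1, a subunit of the proton pump that acidifies lysosomes (0.975 and 0.968), Sncb, which encodes beta-synuclein (0.973 and 0.922), and Ier5l (0.973 and 0.928). Most like Map1lc3a were Ndufv1, a subunit of respiratory complex I (0.961 and 0.929), Nudt18 (0.954 and 0.927) and Tusc2 (0.954 and 0.932). Most like Ulk1 were Tmem94 (0.933 and 0.883), Mast1 (0.911 and 0.912) and Nup210 (0.909 and 0.888).

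RefSeq promoters (GRCm38.p6) were found for 8 of the 10 members, all but Becn1 and Map1lc3a. The windows of Sqstm1 and Gabarapl1 are shown because their levels ran together, that of Gabarapl2 because its level ran against them, and that of Atg5 because it held a motif. Each line gives the 250 bases before the RefSeq start, 5′ to 3′ on the strand of the gene, and capitals mark CACGTG, the E-box core of the element bound by the lysosomal regulator TFEB.
Sqstm1, chr11:50210821-50211070, minus strand: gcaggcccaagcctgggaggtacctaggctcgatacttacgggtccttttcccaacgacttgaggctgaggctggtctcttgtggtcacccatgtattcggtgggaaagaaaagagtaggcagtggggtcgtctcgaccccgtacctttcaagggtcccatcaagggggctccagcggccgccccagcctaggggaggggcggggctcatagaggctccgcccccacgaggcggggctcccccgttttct
Gabarapl1, chr6:129532942-129533191, plus strand: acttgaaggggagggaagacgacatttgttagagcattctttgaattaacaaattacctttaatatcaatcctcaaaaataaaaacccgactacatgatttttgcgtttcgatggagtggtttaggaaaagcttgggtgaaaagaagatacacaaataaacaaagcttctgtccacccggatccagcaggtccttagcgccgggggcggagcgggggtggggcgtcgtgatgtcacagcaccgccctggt
Gabarapl2, chr8:111940453-111940702, plus strand: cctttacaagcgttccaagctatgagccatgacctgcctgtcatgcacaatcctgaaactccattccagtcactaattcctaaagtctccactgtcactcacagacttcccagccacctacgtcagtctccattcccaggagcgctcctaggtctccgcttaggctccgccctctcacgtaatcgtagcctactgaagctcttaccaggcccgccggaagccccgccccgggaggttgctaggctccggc
Atg5, chr10:44268089-44268338, plus strand: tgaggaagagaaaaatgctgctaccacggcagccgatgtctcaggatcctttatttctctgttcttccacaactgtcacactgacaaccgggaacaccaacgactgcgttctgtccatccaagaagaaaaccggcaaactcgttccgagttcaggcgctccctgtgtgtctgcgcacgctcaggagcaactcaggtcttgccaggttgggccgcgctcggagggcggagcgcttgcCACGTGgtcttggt
CACGTG, which reads the same on both strands, stood in 2 of the 8 members, in Atg5 from 14 bases and in Atg7 from 132 bases before the start, and in 6.02% of 32851 RefSeq promoters of the same length. The RefSeq window of Atg7 lies inside the GENCODE model of the gene, and other windows reach into theirs, that of Gabarap over most of its length. The longer form TCACGTGA, which contains the E-box, TGACNNNGC, the antioxidant response element, and TGTTTAC, a FOXO site, each searched on both strands, were in 0 of 8 members and in 0.785%, 10.2% and 3.17% of all promoters.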

How the data were processed

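Poly(A) RNA of dorsal hippocampus was sequenced in 17 libraries. The authors aligned reads to GRCm38 (mm10) with RNA-STAR 2.5.2 and counted them over exons with HTSeq 0.9.1 in reverse-stranded mode, SAMtools 1.1 being named in the processing notes. The authors deposited, for each gene symbol, the raw count of reads without normalization, and the annotation release was not given in the sources used here. Groups came from the sample titles, which give each library as a separate sample without naming its animal, so p-values measure the spread between these libraries.

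Counts were tested in R 4.3.3 with edgeR 4.0.16 (quasi-likelihood F-test, TMM factors, filterByExpr with a minimum count of 10 and a minimum total of 15, Benjamini-Hochberg adjustment, FDR 0.05). Male comparisons came from 1 fit of 12 libraries (15098 genes tested), those with females from 1 fit of 11 Tau libraries (15419 genes tested). The code was tested on simulated data. Alternatives were RLE factors, no filter, only the groups compared, all 17 libraries, DESeq2 1.42.0, voom in limma 3.58.1, and each replicate left out. The comparison of female with male Tau libraries was added after seeing the data. Log2 CPM for correlations used a prior count of 2. The named genes were the 10 members, Acss2, other pathway genes past the FDR or, per comparison, up to 3 with the lowest unadjusted p under 0.05, and the 3 genes most correlated with Sqstm1, Map1lc3a, Gabarapl1 and Ulk1. The members and lists were chosen with earlier results of these data known. Intervals and counting errors cover counting or the fitted spread only. Of 59 other pathway genes 58 were in the table.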

Additional observations from a re-analysis of the deposited data

How the results depend on the processing

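In the 8 comparisons of the design, edgeR, DESeq2 and voom called 0 of 10 members under each alternative run, and no log2 fold change of a called member changed sign. The number called between female and male Tau libraries, 6 with all 11 libraries, ran from 0 to 6 when 1 replicate was left out: 0 without female WT Tau replicate 331, 2 without male WT Tau replicate 773 and 3 without male KO Tau replicate 713. The share of all genes called fell with it, from 23.8% to 3.99%, 10.3% and 11.5%, while the log2 fold change of Sqstm1, -0.50 with all libraries, was -0.49, -0.49 and -0.47. Leaving out 331 or 341 leaves female WT Tau with 1 library, which is then assumed to vary like the other groups. Without 341 the log2 fold change was -0.52 for Sqstm1 and 0.61 for Gabarapl2, against -0.49 and 0.37 without 331. Of the members' fold changes recomputed, 2255 either kept their call and direction or, without a call, moved by no more than their SE. A further 45 without a call moved by more than their SE, and 20 lost their call, all of these 20 in the comparison of female with male Tau libraries. How far a value that kept its call moved was not part of this count. No paired analysis was possible because the groups share no replicate numbers. With 3 libraries a group, the SE of a member's log2 fold change between 2 male groups was 0.08 to 0.14. Counting error of a single value was 0.771% to 5.49%, the most for Atg5, whose precision depth limits most among the members.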
